A study of Mus musculus with 27 samples.

Results

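Expression of 8 genes of glucose uptake and glycolysis (Slc2a2, Gckr, Pfkl, Pfkfb1, Pklr, Khk, Mlxipl and Insr) was examined in 3 lobular zones of the mouse liver before and during pregnancy. The genes were taken by symbol from a table of 21823 genes, and all 8 of them were found and passed the filter on low values, which left 12952 genes for testing. All mice were labelled female, C57BL/6 and wild type (WT), with the substrain given as C57BL/6N in the study's methods, and were non-pregnant (NP) or pregnant at 8 or 16 days post coitum (dpc8 and dpc16). Non-pregnant mice were adult virgins according to the study's methods. Zone 1 (around the portal vein), zone 2 and zone 3 (around the central vein) were cut from liver sections by laser microdissection, which collects all cells of the cut area, and each of the 9 groups of stage and zone had 3 libraries. The labels do not say which libraries came from the same mouse, so p-values measure the spread between libraries and can be too small where libraries share an animal.

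Glucose enters the hepatocyte through GLUT2, the product of Slc2a2, and Gckr encodes a regulatory protein of hepatic sugar metabolism. Phosphofructokinase, of which Pfkl encodes the liver form, commits the sugar to glycolysis, and Pfkfb1 encodes the bifunctional enzyme that makes and degrades its activator fructose 2,6-bisphosphate. Pyruvate kinase (Pklr) catalyses the last step of the pathway, and ketohexokinase (Khk) starts the breakdown of fructose. Mlxipl encodes ChREBP, a transcription factor that responds to carbohydrate and is known to act on the Pklr gene, and Insr encodes the insulin receptor.

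All 8 genes are protein coding. In mm10, with gene models of GENCODE vM21, they lie at chr3:28697903-28731359 (Slc2a2, plus strand), chr5:31297443-31327314 (Gckr, plus), chr10:77986947-78010083 (Pfkl, minus), chrX:150588229-150643878 (Pfkfb1, plus), chr3:89136142-89146784 (Pklr, plus), chr5:30921431-30931248 (Khk, plus), chr5:135089890-135138382 (Mlxipl, plus) and chr8:3122061-3279617 (Insr, minus). Khk and Gckr are 366.2 kb apart. The values are per gene, summed over 3 to 10 annotated transcripts, so isoforms such as the liver and red cell forms of Pklr cannot be told apart.

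Because ChREBP is known to act through the carbohydrate response element (ChoRE), which holds a pair of E-box-like sites, the 250 bases before the transcription starts were searched on both strands for the E-box CACGTG and for the ChoRE consensus. RefSeq (build GRCm38.p6) gave 12 starts for 7 of the 8 genes. The E-box was found before 2 of the 12 starts and in 6.02% of 32851 starts of all genes, and the ChoRE consensus before 1 of the 12 and in 0.097% of all starts. The 3 stretches with a match are those of Pklr (chr3:89136373-89136622, plus strand), Khk (chr5:30921309-30921558, plus strand) and Mlxipl (chr5:135089640-135089889, plus strand), and they are shown because they hold a match and belong to genes that passed a test below. The motifs were chosen with those results known and with ChREBP known to act on Pklr, so the counts are descriptive only. The 12 starts are not independent, as 4 of them belong to Pfkfb1. Capitals mark the match, to the ChoRE consensus in Pklr and to the E-box in Khk and Mlxipl, and the last base is the one before the start.
Pklr: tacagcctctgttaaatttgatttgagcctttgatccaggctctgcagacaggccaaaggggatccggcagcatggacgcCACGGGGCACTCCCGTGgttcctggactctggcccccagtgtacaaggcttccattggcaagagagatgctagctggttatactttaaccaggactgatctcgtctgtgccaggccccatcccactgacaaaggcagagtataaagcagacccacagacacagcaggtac
Khk: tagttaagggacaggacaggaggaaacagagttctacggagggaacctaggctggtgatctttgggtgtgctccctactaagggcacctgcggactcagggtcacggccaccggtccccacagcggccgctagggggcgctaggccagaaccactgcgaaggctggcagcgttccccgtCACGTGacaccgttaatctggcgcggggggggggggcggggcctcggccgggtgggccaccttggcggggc
Mlxipl: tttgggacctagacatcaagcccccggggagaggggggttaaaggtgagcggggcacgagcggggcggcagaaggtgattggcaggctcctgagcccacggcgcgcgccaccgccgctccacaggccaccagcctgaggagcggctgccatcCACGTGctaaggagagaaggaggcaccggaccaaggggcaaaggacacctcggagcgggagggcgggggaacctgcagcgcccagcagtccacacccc
The match in Pklr lies at bases -170 to -154 before the second of its 2 starts, that in Khk at -71 to -66, and that in Mlxipl at -98 to -93 before the first of its 2 starts. No binding was measured, so these are matches of letters.

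The deposited FPKM (fragments mapped per kilobase of transcript, scaled to the library's mapped fragments) can be compared between genes because they are scaled to transcript length. Khk had the highest median over the 27 libraries at 241 FPKM, followed by Slc2a2 at 144, Gckr at 64.4, Pklr at 60.7, Mlxipl at 59.8 and Insr at 55.5. Pfkfb1 and Pfkl were the lowest, at 14.2 and 11.2 FPKM. Between the group means, Pklr varied most, by 5.00-fold, then Khk by 4.68-fold and Mlxipl by 4.22-fold, whereas Insr varied by 1.54-fold. When the 9 groups were ordered by mean, neighbouring groups overlapped for every gene, except for the step from dpc16 zone 1 to dpc16 zone 2 in Khk.

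The zone labels were checked with zonation markers. In zone 1 against zone 3, 8 of 8 periportal markers had higher levels and 8 of 8 pericentral markers lower ones (limma, adjusted p under 0.05, averaged over stages). In 6 libraries, 2 of each stage, genes of the Y chromosome summed to between 7.92 and 23.2 FPKM although all mice were labelled female, against at most 2.97 in the other 21. These were replicate 1 of zone 1 and replicate 2 of zone 3 in NP, replicate 1 of zone 1 and replicate 2 of zone 2 at dpc8, and replicate 3 of zones 2 and 3 at dpc16. They had 966 to 4834 FPKM of connective tissue and smooth muscle markers in sum, against 37.5 to 577 in the others. The 2 skeletal muscle markers Ckm and Acta1 summed to 8.80 to 103.9 FPKM in the 6 libraries and to 0 to 2.18 in the others. Where this RNA came from was not tested. A list of 5 hepatocyte markers summed to 36940 to 62530 FPKM in the 6 and to 32620 to 226200 in the rest. At dpc16 alone it summed to 46940 and 62530 FPKM in the 2 of the 6 libraries at that stage. The other dpc16 libraries had 145800 to 226200 FPKM of these markers, without overlap. In the list, 2 genes were higher and 1 lower at dpc16 than in NP. Results for the 8 genes are also given without the 6 libraries. Those for the wider list and the other named genes come only from the fit to all 27 libraries. Fewer cells of a type and less RNA per cell cannot be told apart in these samples. The FPKM sum of a library was 834568 to 988500 at dpc16, apart from 523854 and 573644 in the 2 of the 6 libraries at that stage, and 499866 to 704327 at the other stages.

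**Figure D1:**
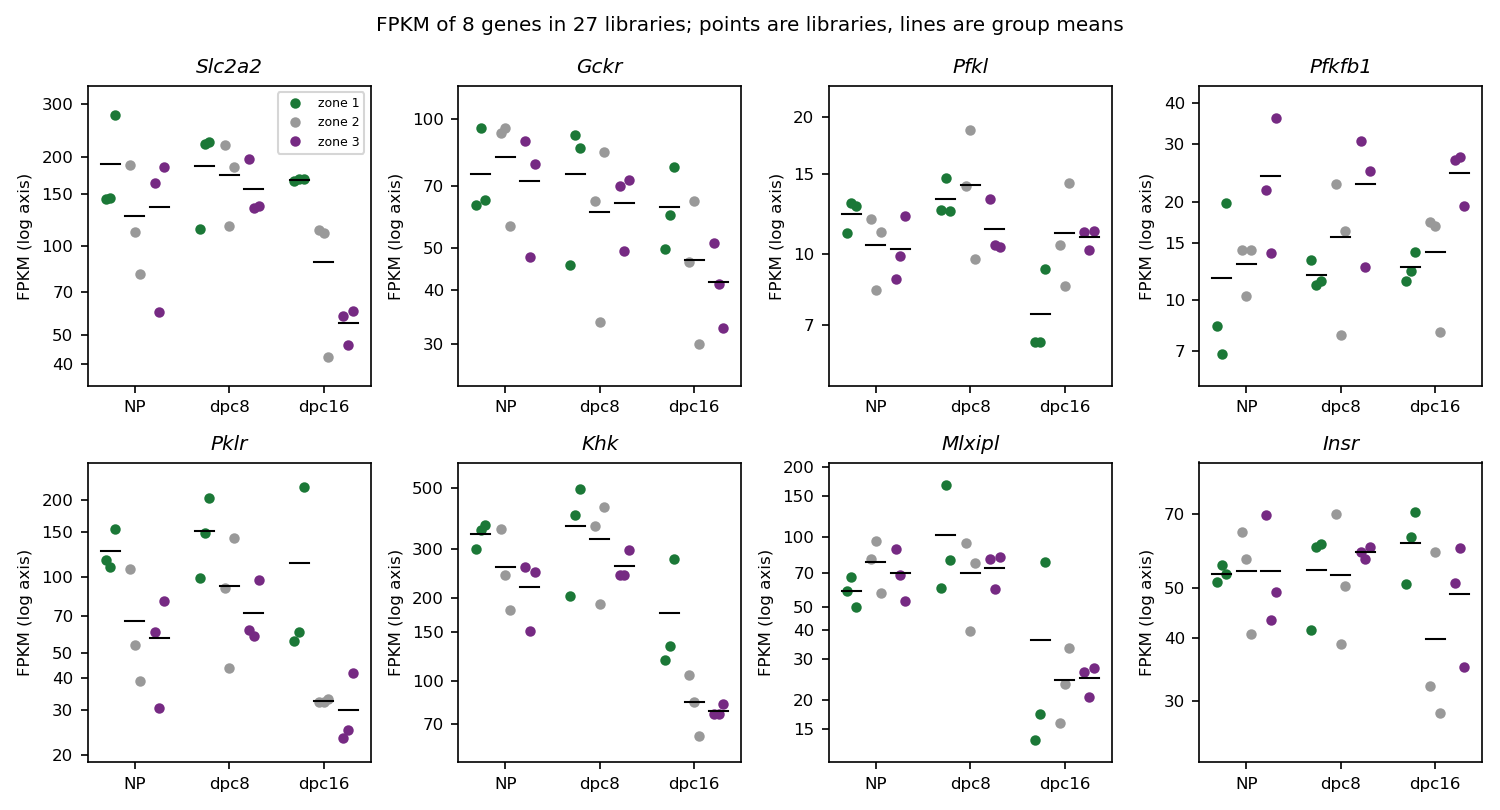
FPKM (log axis) of the 8 genes by stage and zone, with a point for each of the 27 libraries and a line at each group mean. Khk and Mlxipl are lowest at dpc16 in all zones except in 1 zone 1 library, Pklr and Khk have their highest means in zone 1 at each stage, and Pfkfb1 has its highest means in zone 3.

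Zonation was first compared between zone 1 and zone 3, averaged over the stages (9 libraries against 9). Pklr and Khk were higher in zone 1 and Pfkfb1 was lower, and the other 5 genes did not pass the test. That is 3 of 8 genes, where 5.59% of all tested genes passed (2.70% higher and 2.89% lower). The median difference of the 8 genes was 0.17 on the log2(FPKM + 1) scale, beside 0.04 for all genes. In the same comparison, 3 of 5 cholangiocyte markers were higher (median 1.73), 1 of 5 Kupffer cell markers was higher (median 0.51) and 2 of 4 stellate cell markers were lower (median -0.57). Their part in the zonal differences of Pklr, Khk and Pfkfb1 was not tested.

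Pklr, the last enzyme of glycolysis, had 116, 109 and 154 FPKM in the 3 NP zone 1 libraries and 60.7, 30.6 and 80.5 in NP zone 3. At dpc8 it had 99.0, 149 and 204 FPKM in zone 1 and 61.5, 58.5 and 96.8 in zone 3. At dpc16 it had 55.8, 60.4 and 224 FPKM in zone 1 and 23.3, 25.1 and 41.8 in zone 3. The zones did not overlap at any stage, with zone 1 above zone 3 each time, as in 6.63%, 12.8% and 8.36% of all genes in NP, dpc8 and dpc16. The averaged difference was 1.29 ± 0.28 (SE) on the log2(FPKM + 1) scale, a 2.44-fold higher level in zone 1 (limma, adjusted p = 0.005866). With the 6 libraries with Y-linked FPKM left out it was 1.35 (adjusted p = 0.0071). Without replicate 3 of dpc16 zone 1, the library at 224 FPKM, the difference in Pklr was 1.07 (adjusted p = 0.01093). Against zone 2, Pklr in zone 1 differed by 1.09 ± 0.28 (adjusted p = 0.07911), which did not pass the test and did with a replicate block (0.02092), quantile normalization, array weights or the connective tissue covariate. The difference of Pklr between zones 1 and 3 at dpc16, 1.62 ± 0.49, did not pass (adjusted p = 0.1373), and did with the block (0.03908) and with array weights (0.01621).

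Khk, the first enzyme of fructose breakdown, had 300.5, 352 and 366 FPKM in NP zone 1 and 258, 151 and 247 in NP zone 3. It had 203, 397 and 493 FPKM in dpc8 zone 1 and 241, 241 and 298 in dpc8 zone 3. The dpc16 values were 119, 134 and 277 FPKM in zone 1 and 75.7, 75.7 and 82.3 in zone 3. Zones 1 and 3 did not overlap in NP and at dpc16 and overlapped at dpc8, and 6.63% and 8.36% of all genes were higher in zone 1 without overlap in NP and at dpc16. The averaged difference of 0.71 ± 0.21 (SE) passed the test only narrowly (limma, adjusted p = 0.04879) and held in 2 of the 18 fits that left out a library of zone 1 or zone 3, with adjusted p up to 0.1169 for Khk without replicate 3 of dpc16 zone 1. Without the 6 libraries with Y-linked FPKM it was 0.79 (adjusted p = 0.009267).

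Pfkfb1, the enzyme that sets fructose 2,6-bisphosphate, went the other way. Its levels were 8.35, 6.85 and 19.8 FPKM in NP zone 1 and 21.8, 14.0 and 36.1 in NP zone 3. At dpc8 they were 13.3, 11.1 and 11.4 FPKM in zone 1 and 30.7, 12.6 and 24.8 in zone 3. At dpc16 they were 11.5, 12.3 and 14.1 FPKM in zone 1 and 26.9, 27.5 and 19.4 in zone 3, without overlap, as for 6.39% of all genes in that direction. The averaged difference of Pfkfb1 was -0.90 ± 0.23 (SE), a 1.87-fold lower level in zone 1 (limma, adjusted p = 0.02212), and it passed in 15 of the 18 fits that left out a library of those zones. It was lost without NP zone 1 replicate 2, NP zone 3 replicate 3 or dpc8 zone 3 replicate 1 (adjusted p = 0.05529, 0.05892 and 0.05745). Against zone 3, Pfkfb1 in zone 2 differed by -0.70 ± 0.23 and did not pass (adjusted p = 0.1879), though it did with a replicate block (0.02068), the 1 of 9 other settings in which it passed.

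Slc2a2, the glucose transporter, had an averaged zone 1 difference of 0.79 ± 0.25 (SE) and did not pass (limma, adjusted p = 0.06832), though it did under 6 of 9 other settings, among them the fit without the 6 libraries with Y-linked FPKM (0.80, adjusted p = 0.00784). Its zones were furthest apart at dpc16, where zone 1 held 165, 168 and 168 FPKM and zone 3 held 58.1, 46.2 and 60.2. These 3 libraries of zone 1 all lay above zone 3, as for 8.36% of all genes, and the difference of 1.60 ± 0.43 (SE) for Slc2a2 did not pass (adjusted p = 0.06892). It did pass in 5 of 9 other settings. These were array weights (0.001031), leaving out the 6 Y-linked libraries (0.003294), fitting the compared groups alone (0.01143), adjusting for connective tissue markers (0.02305) and quantile normalization (0.04401). The adjusted p of Slc2a2 reached 0.09486 in the others. In NP mice the zones overlapped, with 144, 145 and 277 FPKM in zone 1 and 163, 59.7 and 185 in zone 3. The change of this difference from NP to dpc16 was 1.04 ± 0.61 and did not pass (limma, adjusted p = 0.9932).

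Gckr, Pfkl, Mlxipl and Insr had averaged differences between zones 1 and 3 of 0.27 ± 0.21, -0.02 ± 0.13, 0.07 ± 0.27 and 0.08 ± 0.16 (SE). Their 95% confidence intervals were -0.15 to 0.70 for Gckr, -0.30 to 0.25 for Pfkl, -0.50 to 0.64 for Mlxipl and -0.26 to 0.41 for Insr. Within a single stage, none of the 8 genes passed in zone 1 against zone 3 (limma), where 1.34% (NP), 1.61% (dpc8) and 1.55% (dpc16) of all genes did. At an unadjusted p under 0.05 there were 2, 1 and 5 of the 8 genes, beside 8.02%, 12.2% and 7.86% of all genes. None passed in zone 1 against zone 2 or zone 2 against zone 3 averaged over stages (0.919% and 1.88% of all genes), with 3 and 1 genes at an unadjusted p under 0.05, beside 6.33% and 10.01% of all genes.

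**Figure D2:**
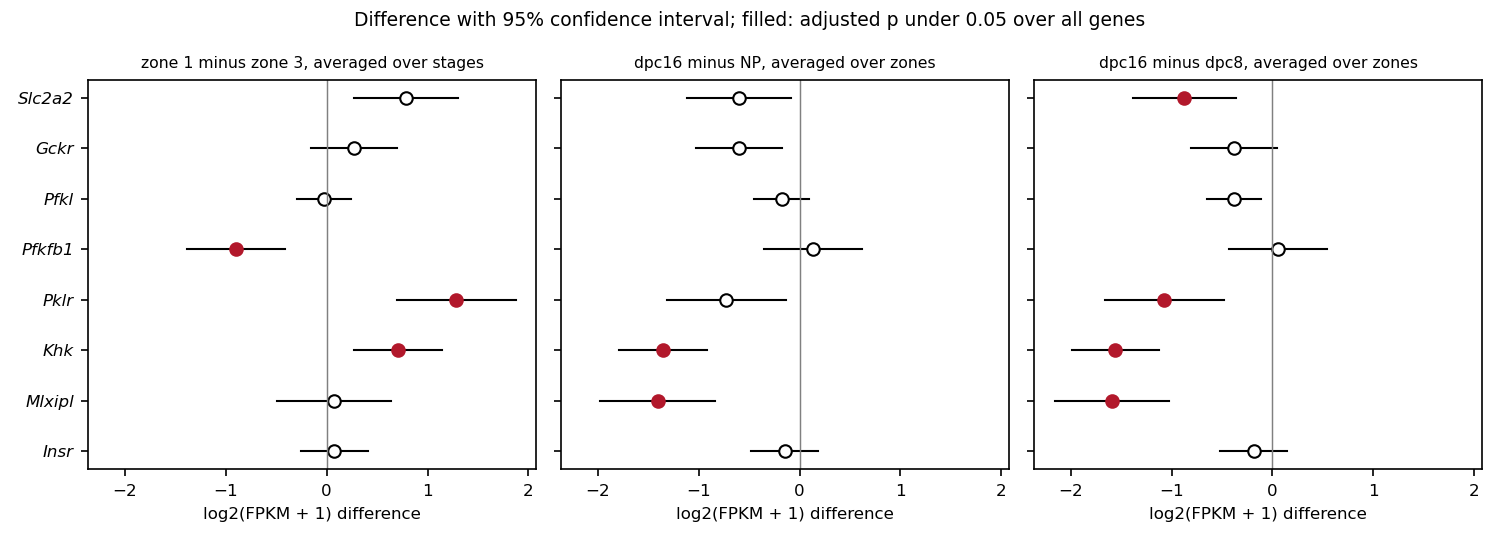
Difference on the log2(FPKM + 1) scale (horizontal axis) of each gene in 3 averaged comparisons, with its 95% confidence interval as a line and a filled point where the adjusted p is under 0.05. Pklr and Khk lie above 0 and Pfkfb1 below 0 for zone 1 against zone 3, and Khk and Mlxipl lie furthest below 0 in both comparisons of dpc16.

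The dpc8 livers were compared with NP next. None of the 8 genes passed in dpc8 against NP averaged over zones (limma), where 0.108% of all genes did, and none had an unadjusted p under 0.05, as 6.11% of all genes had. The differences lay between -0.22 ± 0.21 (SE) for Gckr and 0.35 ± 0.28 for Pklr. No gene of the 8 passed within a single zone either, where 0.0309%, 0.00772% and 0.0154% of all genes did in zones 1, 2 and 3, and again none had an unadjusted p under 0.05.

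At dpc16, Khk and Mlxipl had lower levels. In dpc16 against NP averaged over zones, these 2 of the 8 genes were lower and none was higher, where 11.8% of all genes passed and 6.15% were lower. In dpc16 against dpc8, Khk, Mlxipl, Pklr and Slc2a2 were lower, 4 of 8, where 11.1% of all genes passed and 5.69% were lower. The count was 2 of 8, Khk and Mlxipl, with a replicate block as a random effect, where 6.18% of all genes passed, and also 2 when same-numbered libraries of a stage were averaged (2.14% of all genes). The median difference of the 8 genes was -0.60 against NP and -0.63 against dpc8 on the log2(FPKM + 1) scale, beside -0.01 for all genes in both. The 2 comparisons share the dpc16 libraries. Some marker lists changed in these comparisons too, in either direction. Of 8 periportal markers, 5 were lower in each comparison (median -1.05 against NP and -1.14 against dpc8), and their sum ranged from 798 to 7808 FPKM in NP, 682 to 5812 at dpc8 and 229.6 to 6148 at dpc16 over all zones. Of 8 pericentral markers, 1 was higher and 2 lower in each. In each, 1 of 4 stellate cell markers was lower and 1 of 3 tested erythroid markers higher. No cholangiocyte, endothelial or connective tissue and smooth muscle marker passed in either. Of 5 Kupffer cell markers, 3 were lower in each (median -0.76 and -0.80), with sums of 61.9 to 291, 79.5 to 196 and 24.2 to 151 FPKM. Against dpc8, 3 of 3 proliferation markers were lower (median -1.29) and 2 of 5 hepatocyte markers higher (median 0.79). The part of these lists in the levels of the 8 genes was not tested.

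Khk ranged from 151 to 366 FPKM in the 9 NP libraries (median 258), from 190.0 to 493 at dpc8 (median 298) and from 63.5 to 277 at dpc16 (median 83.6). In zone 2 the NP libraries had 354, 241 and 180 FPKM and the dpc16 libraries 105, 83.6 and 63.5, and all dpc16 libraries of zones 2 and 3 lay below every NP and dpc8 library. In zones 2 and 3, 9.59% and 8.87% of all genes were lower without overlap against NP, and 6.96% and 12.2% against dpc8. In zone 1, replicate 3 at dpc16 had 277 FPKM and stood near the NP libraries, while the other 2 had 119 and 134. The averaged difference was -1.36 ± 0.21 (SE) against NP, a 2.56-fold lower level (limma, adjusted p = 0.0001249), and -1.56 ± 0.21 against dpc8, a 2.94-fold lower level (adjusted p = 3.153e-05). Without the 6 libraries with Y-linked FPKM the differences were -1.42 and -1.75. Khk passed both under all 11 other settings and in all 27 fits that left out a library.

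Mlxipl, which encodes the carbohydrate-responsive factor, ranged from 50.1 to 96.0 FPKM in NP (median 67.2), from 39.7 to 167 at dpc8 (median 79.6) and from 13.5 to 78.0 at dpc16 (median 23.4). The dpc16 libraries held 13.5, 17.4 and 78.0 FPKM in zone 1, then 16.02, 23.4 and 33.4 in zone 2 and 26.5, 20.6 and 27.4 in zone 3. Apart from the zone 1 library at 78.0, the same replicate 3 as in Khk, all lay below every NP and dpc8 library. The share of all genes that separate in this way over pooled zones and stages was not counted. Within zones 2 and 3, 9.59% and 8.87% of all genes were lower without overlap against NP, and 6.96% and 12.2% against dpc8. The averaged difference was -1.41 ± 0.27 (SE) against NP, a 2.65-fold lower level (limma, adjusted p = 0.001354), and -1.59 ± 0.27 against dpc8, a 3.01-fold lower level (adjusted p = 0.0004199). When those 6 libraries were left out, the differences were -1.51 and -1.92. Mlxipl passed both under all 11 other settings and in all 27 fits that left out a library. Without replicate 3 of dpc16 zone 1 the difference from NP in Mlxipl was -1.66.

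Pklr fell by 1.07 ± 0.28 (SE) from dpc8 to dpc16 on the log2 scale (limma, adjusted p = 0.01529), and its difference from NP of -0.73 ± 0.28 did not pass (adjusted p = 0.1074). In zone 2 its dpc16 libraries held 32.1, 32.3 and 33.3 FPKM, below 90.2, 43.8 and 142 at dpc8 and 108, 53.7 and 38.9 in NP. In that zone, 6.96% and 9.59% of all genes were lower without overlap against dpc8 and NP. Pklr passed the test in neither comparison within zone 2. Slc2a2 fell by 0.87 ± 0.25 (SE) from dpc8 to dpc16, a 1.83-fold lower level (adjusted p = 0.02445), with a difference from NP of -0.60 ± 0.25 that did not pass (adjusted p = 0.1303). With a replicate block as a random effect, neither decrease from dpc8 passed (adjusted p = 0.05265 for Pklr and 0.09943 for Slc2a2), nor when same-numbered libraries of a stage were averaged to 1 value (0.1495 and 0.08971). Without the 6 libraries with Y-linked FPKM, Pklr and Slc2a2 were also lower than in NP, by -0.96 and -0.69 (adjusted p = 0.03294 and 0.01268). The Slc2a2 call was also lost in 5 of the 18 fits that left out a dpc8 or dpc16 library, with adjusted p of at most 0.05465 in them.

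Gckr differed from NP by -0.60 ± 0.21 (SE) at dpc16 and did not pass (limma, adjusted p = 0.06122), though it did without the 6 libraries with Y-linked FPKM (-0.57, adjusted p = 0.02088). Without replicate 3 of dpc16 zone 1 Gckr did pass, with a difference of -0.65 (adjusted p = 0.0495). Pfkl, Pfkfb1 and Insr differed from NP by -0.18 ± 0.13, 0.14 ± 0.23 and -0.15 ± 0.16, with 95% confidence intervals of -0.45 to 0.09, -0.35 to 0.62 and -0.48 to 0.18. The group means of Insr ranged from 39.9 ± 16.7 FPKM (SD, n = 3) in dpc16 zone 2 to 61.5 ± 9.96 in dpc16 zone 1.

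These calls depend on how libraries are scaled. When each library was divided by its FPKM sum, which was chosen after the higher sums at dpc16 had been seen, the median of all genes moved by -0.36 in dpc16 against NP and by -0.41 in dpc16 against dpc8, and 7 of the 8 genes were lower in each, while the share of all genes that passed rose to 25.1% and 28.1%. Against NP, Khk was then at -1.75 and Mlxipl at -1.80. Pfkfb1 moved with the median, from 0.14 to -0.23 against NP, and did not pass either way.

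**Figure D3:**
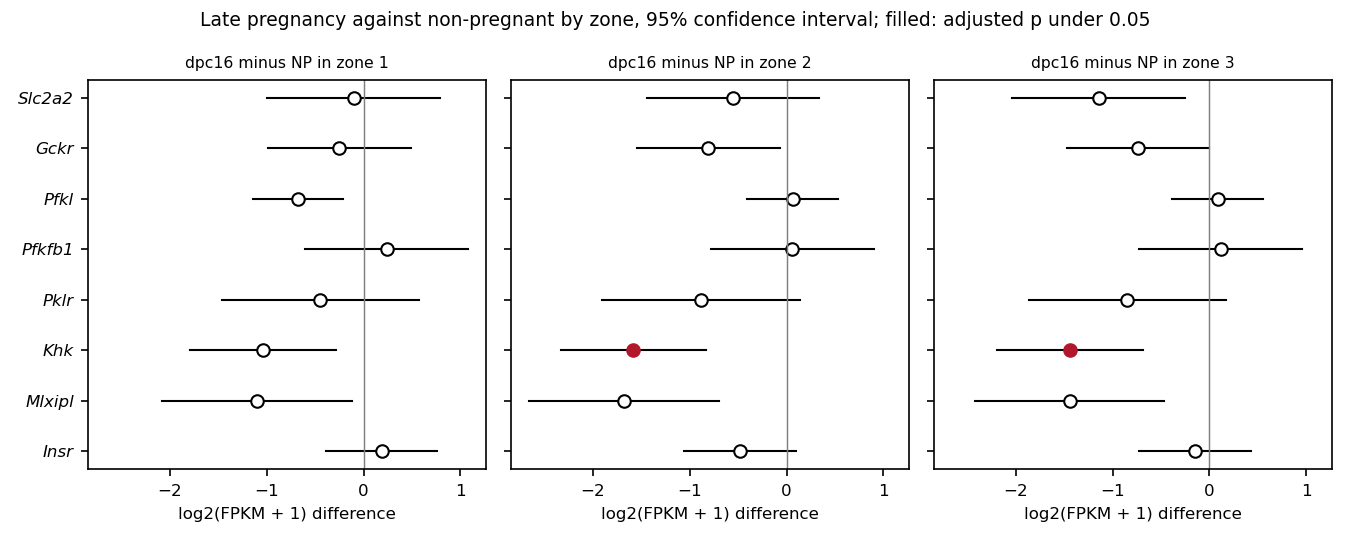
Difference between dpc16 and NP on the log2(FPKM + 1) scale (horizontal axis) in each zone (panels), with 95% confidence intervals as lines and filled points where the adjusted p is under 0.05. Khk is filled in zones 2 and 3, and the intervals of Khk and Mlxipl lie below 0 in all zones.

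Within single zones, Khk alone passed in dpc16 against NP, in zone 2 by -1.58 ± 0.36 (SE, adjusted p = 0.01693) and in zone 3 by -1.44 ± 0.36 (adjusted p = 0.0493), where 2.66% and 1.32% of all genes passed and 1.64% and 0.571% were lower. In zone 1 its difference was -1.04 ± 0.36 (adjusted p = 0.2056), and none of the 8 passed there, where 1.37% of all genes did and 3 of the 8 had an unadjusted p under 0.05, beside 11.0% of all genes. Against dpc8, Khk fell by 1.89 and 1.72 on the log2 scale in zones 2 and 3 (limma, adjusted p = 0.006974 and 0.01478), and none passed in zone 1, with 3 at an unadjusted p under 0.05, beside 13.4% of all genes. The share of all genes that passed was 2.01%, 1.51% and 1.37% in zones 1, 2 and 3, and 0.803% and 0.788% were lower in zones 2 and 3. The Khk call against NP was lost without the filter on low values in zone 3 (adjusted p = 0.06395), with a pseudocount of 0.1 in zone 3 (0.05011) and with only the compared groups in the fit in zones 2 and 3 (0.2335 and 0.1195), and that against dpc8 in zone 2 with only the compared groups (0.373). Leaving out 1 of the 6 libraries compared kept it in 2 of 6 fits in zone 2 and 1 of 6 in zone 3. Over all 27 fits without 1 library, the number of the 8 genes that passed against NP moved in 6 fits in zone 2 and in 18 in zone 3.

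Pfkl, the liver phosphofructokinase, had its lowest levels in zone 1 at dpc16. Zone 1 held 6.43, 6.42 and 9.28 FPKM at dpc16, below 11.1, 12.9 and 12.7 in NP and 12.5, 14.7 and 12.5 at dpc8. The groups did not overlap, and 8.01% and 10.1% of all genes were lower without overlap in zone 1 against NP and dpc8. The difference of -0.68 ± 0.23 (SE) from NP did not pass (limma, adjusted p = 0.1727). Connective tissue and smooth muscle markers had differences in zone 1 with medians of -2.01 against NP and -2.12 against dpc8, with 0 of 8 markers above 0 and none that passed. With their mean as a covariate, the difference of Pfkl from NP was -0.58 (adjusted p = 0.2085), and without the 6 libraries with Y-linked FPKM it was -0.74 (0.1148). In zone 3 the dpc16 libraries held 11.2, 10.2 and 11.2 FPKM and the NP libraries 8.80, 9.90 and 12.1. The difference between the changes in zones 1 and 3 was -0.76 ± 0.32 and did not pass (adjusted p = 0.9932), as for each of the 8 genes, where 0.0540% of all genes did. Pfkl was the only 1 of the 8 with an unadjusted p under 0.05 in that comparison, beside 3.16% of all genes, and none had one in the like comparison of dpc8, in which 0 of all genes passed.

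How the genes varied together was described over the 27 libraries, which share groups and may share animals. Khk correlated with Pklr at r = 0.862, with Slc2a2 at 0.813 and with Mlxipl at 0.802 (Pearson, log2(FPKM + 1)). After group means were taken out, these were 0.887, 0.701 and 0.578. Pfkl and Pfkfb1 had correlations with Khk of 0.250 and -0.112, and of -0.088 and 0.422 after group means were taken out. Among all tested genes, the 2 closest to Khk were Aldh1l1 (r = 0.953) and Echdc3 (0.919). The closest were Atp5a1 (0.896) and Aldh1l1 (0.879) for Slc2a2, Pcyt2 (0.904) and Nfib (0.850) for Gckr, and Acaca (0.895) and Sqor (0.888) for Pklr. Dqx1 (0.879) and Ggt6 (0.869) were closest to Mlxipl, Por (0.837) and Alad (0.833) to Pfkfb1, Gcgr (0.811) and Sfxn2 (0.805) to Insr, and Poc1a (0.710) and Hist1h3i (0.705) to Pfkl.

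The 8 genes belong to a wider list of 56 genes of glucose transport, glycolysis, fructose breakdown, ChREBP and insulin signalling, of which 54 were tested. Of the 46 others, 6 were higher and 2 lower in zone 1 than in zone 3, where 5.59% of all genes passed, and 1 was higher and 6 lower at dpc16 than in NP, where 11.8% passed. These 6 include Slc2a4, whose call is not read as a change for the reason given below. In dpc16 against dpc8, 2 were higher and 3 lower, where 11.1% passed. Their median difference was -0.07 in dpc16 against NP, beside -0.60 for the 8.

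Among the other enzymes of the pathway, Gpi1, Eno1 and Gapdh were higher in zone 1 than in zone 3, as Pklr and Khk were, by 0.91, 0.93 and 0.71 on the log2 scale (limma, adjusted p = 0.0003742, 0.006815 and 0.01061). Gapdh and Eno1 belong to families of near-identical copies, so their values may be split between copies. Tkfc, which acts after ketohexokinase, was higher by 1.33 ± 0.23 (adjusted p = 0.0004402), and Sord, which makes fructose from sorbitol, was lower (-1.177 ± 0.21, adjusted p = 0.0007742). At dpc16 against NP, Aldoc (-1.57 ± 0.28), Sord (-0.95 ± 0.21) and Pfkm (-0.54 ± 0.12) were lower. Slc2a4, a glucose transporter, passed the filter only through NP libraries, of which 4 reached 1 FPKM, with at most 2.34 FPKM in NP and 0.110 at dpc16, so its call is not read as a change. Ldha, lactate dehydrogenase A, was higher by 1.32 ± 0.27 (adjusted p = 0.002428). The higher Ldha level stood in replicates 1 and 2 of each dpc16 zone, at 1082 to 1570 FPKM, whereas the replicate 3 libraries held 347, 327 and 466. Akt2, a kinase of insulin signalling, was higher at dpc16 than at dpc8 by 0.45 ± 0.12 (adjusted p = 0.01529).

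**Figure D4:**
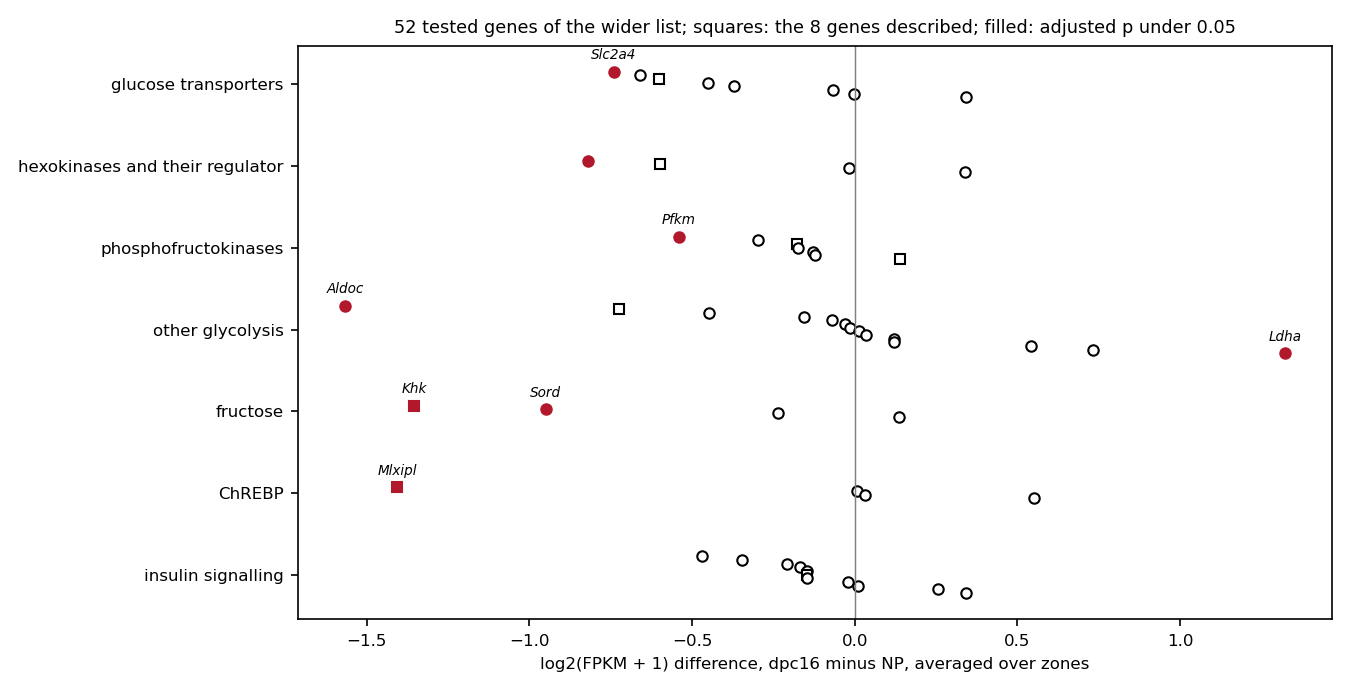
Difference between dpc16 and NP averaged over zones on the log2(FPKM + 1) scale (horizontal axis) for 52 of the 54 tested genes of the wider list, by group (rows), with squares for the 8 genes described and filled points where the adjusted p is under 0.05. Of the genes plotted, Aldoc, Mlxipl and Khk lie furthest to the left and Ldha furthest to the right at 1.32.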

How the data were processed

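RNA of laser-microdissected liver zones was sequenced in 27 libraries, 3 for each stage and zone, grouped by sample title. The authors depleted ribosomal RNA, trimmed reads with cutadapt, mapped them to mm10 (HISAT2 2.1.0), retained reads with a unique position and obtained FPKM from Cuffdiff (Cufflinks 2.2.1) for GENCODE's protein-coding genes. The deposited FPKM were used as given.

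The values were tested on log2(FPKM + 1) with limma 3.58.1 in R 4.3.3 (a mean for each of the 9 groups, trend and robust settings, two-sided), after removal of genes that did not reach 1 FPKM in 3 or more libraries. P-values were adjusted by Benjamini-Hochberg within each of 20 comparisons, with a threshold of 0.05. Limma stands in for Cuffdiff, which needs reads. Folds are on the FPKM + 1 scale and understate changes of low genes. Figures were drawn with matplotlib 3.10.9. Besides this fit, 11 other settings (FPKM-sum scaling chosen after seeing the data, and the fit without the libraries with Y-linked FPKM taken from earlier results of these data) and 27 fits without 1 library were run. The genes and lists were chosen with earlier results of these data known. Other named genes were up to 12 of the wider list that passed, by smallest adjusted p, and the 2 genes best correlated with each of the 8. Of the 12, 2 are not reported here.

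The table gives no read counts. From steps in low FPKM of single-transcript genes, depths of 10.2 to 35.2 M mapped reads were estimated, or 7.32 to 32.4 M when the smallest depth with nearly as many values on a step was taken. The 2 readings differed by up to 2.09-fold, by over 1.5-fold in 4 of 27 libraries. The settings of this estimate were revised 3 times after its output had been seen, so it gives only an order of magnitude and no interval was drawn from it.

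Same-numbered libraries of different zones deviated together from their group means (r over 0.1) at dpc16, in 9 of 9 pairs (r from 0.263 to 0.863, median 0.358). The fit with a replicate block is therefore given beside the unblocked one where it changed a call. An r over 0.1 was also seen in 4 of 9 pairs in NP and 5 of 9 at dpc8. Same-numbered libraries of 1 zone reached it between different stages as well. This was so in 7 of 9 pairs of NP and dpc8 (median 0.167, highest 0.679), 3 of 9 of NP and dpc16 and 1 of 9 of dpc8 and dpc16. The meaning of the number is not given in the labels, so these correlations cannot tell which libraries share an animal.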

Additional observations from a re-analysis of the deposited data

How the results depend on the processing

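Khk and Mlxipl kept their lower level at dpc16 against NP and against dpc8, averaged over zones, past the threshold under all 11 other settings and all 27 fits without 1 library. Pklr in zone 1 against zone 3 did so under all 9 other settings and all 27 such fits. The zonal call of Khk was lost without the filter on low values (adjusted p = 0.06021) and with FPKM-sum scaling (0.0518).

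The number of the 8 genes that passed moved by over 1.5 times as follows, with the share of all genes that passed under the same setting in parentheses, and for each the cause was not tested. With quantile normalization it was 1 (0 as reported, 0.842% of all genes) in zone 1 against zone 2, 1 (0 as reported, 1.52% of all genes) in zone 1 against zone 3 in dpc16 and 2 (0 as reported, 1.85% of all genes) in dpc16 against dpc8 in zone 1. With array weights it was 1 (0 as reported, 1.82% of all genes) in zone 1 against zone 2, 3 (0 as reported, 3.83% of all genes) in zone 1 against zone 3 in dpc16, 5 (2 as reported, 22.4% of all genes) in dpc16 against NP, 3 (0 as reported, 5.15% of all genes) in dpc16 against NP in zone 1, 2 (1 as reported, 8.5% of all genes) in dpc16 against NP in zone 2, 3 (1 as reported, 5.99% of all genes) in dpc16 against NP in zone 3, 3 (0 as reported, 7.77% of all genes) in dpc16 against dpc8 in zone 1, 3 (1 as reported, 7.67% of all genes) in dpc16 against dpc8 in zone 2 and 4 (1 as reported, 12.1% of all genes) in dpc16 against dpc8 in zone 3. With a replicate block it was 1 (0 as reported, 1.5% of all genes) in zone 1 against zone 2, 1 (0 as reported, 3.2% of all genes) in zone 2 against zone 3 and 1 (0 as reported, 2.65% of all genes) in zone 1 against zone 3 in dpc16. With the connective tissue covariate it was 1 (0 as reported, 1.53% of all genes) in zone 1 against zone 2, 1 (0 as reported, 2.59% of all genes) in zone 1 against zone 3 in dpc16, 4 (2 as reported, 19.9% of all genes) in dpc16 against NP, 2 (1 as reported, 6.57% of all genes) in dpc16 against NP in zone 2, 1 (0 as reported, 2.79% of all genes) in dpc16 against dpc8 in zone 1 and 2 (1 as reported, 3.61% of all genes) in dpc16 against dpc8 in zone 3. Without the 6 libraries with Y-linked FPKM it was 1 (0 as reported, 2.71% of all genes) in zone 1 against zone 3 in dpc16, 5 (2 as reported, 16.6% of all genes) in dpc16 against NP, 2 (1 as reported, 4.45% of all genes) in dpc16 against NP in zone 2, 2 (1 as reported, 3.61% of all genes) in dpc16 against NP in zone 3, 2 (0 as reported, 4.38% of all genes) in dpc16 against dpc8 in zone 1 and 2 (1 as reported, 3.87% of all genes) in dpc16 against dpc8 in zone 3. With only the groups compared it was 1 (0 as reported, 1.15% of all genes) in zone 1 against zone 3 in dpc16, 0 (1 as reported, 0.131% of all genes) in dpc16 against NP in zone 2, 0 (1 as reported, 0.309% of all genes) in dpc16 against NP in zone 3, 0 (1 as reported, 0% of all genes) in dpc16 against dpc8 in zone 2 and 3 (1 as reported, 1.17% of all genes) in dpc16 against dpc8 in zone 3. With FPKM-sum scaling it was 7 (2 as reported, 25.1% of all genes) in dpc16 against NP, 7 (4 as reported, 28.1% of all genes) in dpc16 against dpc8, 2 (0 as reported, 5.67% of all genes) in dpc16 against NP in zone 1, 3 (1 as reported, 8.77% of all genes) in dpc16 against NP in zone 2, 2 (1 as reported, 4.81% of all genes) in dpc16 against NP in zone 3, 3 (0 as reported, 11.7% of all genes) in dpc16 against dpc8 in zone 1, 4 (1 as reported, 7.03% of all genes) in dpc16 against dpc8 in zone 2 and 2 (1 as reported, 5.81% of all genes) in dpc16 against dpc8 in zone 3. With a replicate block as a random effect it was 2 (4 as reported, 6.18% of all genes) in dpc16 against dpc8. With the mean of same-numbered libraries it was 2 (4 as reported, 2.14% of all genes) in dpc16 against dpc8. With a pseudocount of 0.1 it was 0 (1 as reported, 1.2% of all genes) in dpc16 against NP in zone 3. Without the filter on low values it was 0 (1 as reported, 0.994% of all genes) in dpc16 against NP in zone 3. With 1 library left out it ranged from 1 to 4 in zone 1 against zone 3, 0 to 1 in zone 1 against zone 2, 0 to 1 in zone 1 against zone 3 in dpc16, 2 to 4 in dpc16 against NP, 0 to 1 in dpc16 against NP in zone 1, 0 to 2 in dpc16 against NP in zone 2, 0 to 2 in dpc16 against NP in zone 3, 0 to 1 in dpc16 against dpc8 in zone 1, 0 to 2 in dpc16 against dpc8 in zone 2 and 0 to 2 in dpc16 against dpc8 in zone 3. Smaller moves, by 1 gene, were seen in zone 1 against zone 3 (3 as reported), with 4 when libraries were weighted or quantile-normalized, when connective tissue was a covariate, when the fit held only the groups compared and when the 6 Y-linked libraries were left out, and 2 when no filter on low values was used. In dpc16 against NP there were 3 with quantile normalization, and in dpc16 against dpc8 there were 5 with array weights or the connective tissue covariate and 3 to 5 with 1 library left out.

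Differences of a gene changed sign in 59 cases under another setting and in 103 with 1 library left out, in none of which the gene passed the threshold as reported above, and the cause was not tested. With quantile normalization the log2 difference was 0.019 for Slc2a2 in dpc8 against NP in zone 1 and 0.0048 for Mlxipl in zone 2 against zone 3. With array weights the log2 difference was 0.20 for Slc2a2 in dpc8 against NP in zone 1, 0.11 for Slc2a2 in dpc8 change between zones 1 and 3, 0.073 for Gckr in dpc8 against NP in zone 1, 0.14 for Pklr in dpc8 change between zones 1 and 3, 0.018 for Pfkl in zone 1 against zone 2, -0.023 for Pfkl in zone 2 against zone 3, -0.062 for Pfkl in dpc16 against NP in zone 2, 0.034 for Pfkl in dpc8 change between zones 1 and 3, 0.0041 for Khk in dpc8 change between zones 1 and 3, 0.11 for Mlxipl in zone 2 against zone 3, -0.10 for Mlxipl in zone 1 against zone 3 in dpc16, 0.0033 for Insr in zone 1 against zone 3 in dpc8 and 0.0068 for Insr in dpc16 against NP in zone 3. Without the 6 libraries with Y-linked FPKM the log2 difference was 0.15 for Slc2a2 in dpc8 against NP in zone 1, -0.18 for Slc2a2 in dpc8 against NP in zone 3, 0.32 for Slc2a2 in dpc8 change between zones 1 and 3, -0.083 for Gckr in zone 1 against zone 3 in NP, 0.17 for Gckr in dpc8 against NP in zone 1, 0.42 for Pklr in dpc8 change between zones 1 and 3, 0.0089 for Pfkl in zone 1 against zone 3, 0.043 for Pfkl in zone 1 against zone 2, -0.034 for Pfkl in zone 2 against zone 3, -0.12 for Pfkl in dpc16 against NP in zone 2, -0.057 for Pfkfb1 in dpc8 against NP in zone 1, -0.046 for Pfkfb1 in dpc16 against NP in zone 3, 0.27 for Khk in dpc8 change between zones 1 and 3, 0.036 for Mlxipl in zone 2 against zone 3, 0.16 for Mlxipl in dpc8 against NP in zone 2, -0.10 for Insr in zone 1 against zone 3 in NP, 0.047 for Insr in zone 1 against zone 3 in dpc8, 0.16 for Insr in dpc8 against NP in zone 2 and 0.15 for Insr in dpc8 change between zones 1 and 3. With the connective tissue covariate the log2 difference was 0.045 for Slc2a2 in dpc8 against NP in zone 1, 0.013 for Gckr in dpc8 against NP in zone 1, -0.055 for Pfkfb1 in dpc16 against dpc8, -0.032 for Pfkfb1 in dpc16 against NP in zone 1, -0.25 for Pfkfb1 in dpc16 against dpc8 in zone 1, -0.077 for Pfkfb1 in dpc16 change between zones 1 and 3, 0.041 for Insr in zone 1 against zone 3 in dpc8 and 0.072 for Insr in dpc8 against NP in zone 2. With FPKM-sum scaling the log2 difference was 0.088 for Slc2a2 in dpc8 against NP in zone 1, 0.056 for Gckr in dpc8 against NP in zone 1, -0.20 for Pfkl in dpc16 against NP in zone 2, -0.17 for Pfkl in dpc16 against NP in zone 3, 0.074 for Pfkl in dpc8 change between zones 1 and 3, -0.23 for Pfkfb1 in dpc16 against NP, -0.38 for Pfkfb1 in dpc16 against dpc8, -0.33 for Pfkfb1 in dpc16 against NP in zone 1, -0.22 for Pfkfb1 in dpc16 against NP in zone 2, -0.15 for Pfkfb1 in dpc16 against NP in zone 3, -0.60 for Pfkfb1 in dpc16 against dpc8 in zone 1, -0.066 for Pfkfb1 in dpc16 against dpc8 in zone 3, -0.18 for Pfkfb1 in dpc16 change between zones 1 and 3, -0.21 for Mlxipl in zone 1 against zone 3 in dpc16, 0.052 for Insr in dpc8 against NP in zone 2, -0.42 for Insr in dpc16 against NP in zone 1 and -0.52 for Insr in dpc16 against dpc8 in zone 1. FPKM-sum scaling accounts for 17 of these cases and moved the median of all genes by -0.563, -0.27 and -0.26 in dpc16 against NP in zones 1, 2 and 3, and by -0.655, -0.35 and -0.24 in dpc16 against dpc8, so these sign changes are not read as changes of Pfkfb1, Pfkl or Insr.

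With 1 library left out, log2 differences that changed sign ranged as follows. For Slc2a2 they ranged from -0.17 to 0.31 in dpc8 against NP in zone 1, -0.18 to 0.63 in dpc8 against NP in zone 3, -0.26 to 0.21 in dpc16 against NP in zone 1, -0.41 to 0.072 in dpc16 against dpc8 in zone 1 and -0.64 to 0.17 in dpc8 change between zones 1 and 3. For Gckr they ranged from -0.035 to 0.18 in zone 2 against zone 3, -0.19 to 0.25 in zone 1 against zone 3 in NP, -0.0037 to 0.49 in zone 1 against zone 3 in dpc8, -0.22 to 0.27 in dpc8 against NP in zone 1, -0.40 to 0.039 in dpc8 against NP in zone 3 and -0.082 to 0.41 in dpc8 change between zones 1 and 3. For Pklr they ranged from -0.039 to 0.48 in dpc8 against NP in zone 1, -0.24 to 0.79 in dpc16 change between zones 1 and 3 and -0.49 to 0.20 in dpc8 change between zones 1 and 3. For Pfkl they ranged from -0.077 to 0.013 in zone 1 against zone 3, -0.12 to 0.22 in dpc16 against NP in zone 2, -0.011 to 0.20 in dpc16 against NP in zone 3, -0.11 to 0.055 in dpc16 against dpc8 in zone 3 and -0.15 to 0.069 in dpc8 change between zones 1 and 3. For Pfkfb1 they ranged from -0.020 to 0.23 in dpc8 against NP, -0.082 to 0.16 in dpc16 against dpc8, -0.11 to 0.59 in dpc8 against NP in zone 1, -0.16 to 0.55 in dpc8 against NP in zone 2, -0.38 to 0.30 in dpc8 against NP in zone 3, -0.040 to 0.66 in dpc16 against NP in zone 1, -0.12 to 0.39 in dpc16 against NP in zone 2, -0.20 to 0.46 in dpc16 against NP in zone 3, -0.0049 to 0.14 in dpc16 against dpc8 in zone 1, -0.50 to 0.24 in dpc16 against dpc8 in zone 2, -0.18 to 0.43 in dpc16 against dpc8 in zone 3, -0.22 to 0.55 in dpc16 change between zones 1 and 3 and -0.13 to 0.65 in dpc8 change between zones 1 and 3. For Khk they ranged from -0.25 to 0.39 in dpc8 against NP in zone 1 and -0.53 to 0.11 in dpc8 change between zones 1 and 3. For Mlxipl they ranged from -0.18 to 0.23 in zone 1 against zone 3, -0.16 to 0.25 in zone 1 against zone 2, -0.11 to 0.096 in zone 2 against zone 3, -0.078 to 0.65 in zone 1 against zone 3 in dpc8, -0.65 to 0.57 in zone 1 against zone 3 in dpc16, -0.46 to 0.16 in dpc8 against NP in zone 2, -0.091 to 0.27 in dpc8 against NP in zone 3 and -0.41 to 0.81 in dpc16 change between zones 1 and 3. For Insr they ranged from -0.13 to 0.21 in zone 1 against zone 3 in NP, -0.23 to 0.047 in zone 1 against zone 3 in dpc8, -0.035 to 0.10 in dpc8 against NP, -0.094 to 0.18 in dpc8 against NP in zone 1, -0.25 to 0.16 in dpc8 against NP in zone 2, -0.31 to 0.066 in dpc16 against NP in zone 3 and -0.34 to 0.034 in dpc8 change between zones 1 and 3.

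With a replicate block, Pklr passed in zone 1 against zone 2 and in zone 1 against zone 3 at dpc16, and Pfkfb1 passed in zone 2 against zone 3, and no other call changed with the number as a fixed block.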
